A study of Sus scrofa with 6 samples.

Results

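Of the 9362 circular RNAs (circRNAs) found in porcine granulosa cells, 3403 were exonic circRNAs that the deposited annotation did not find in either of the earlier porcine lists it was compared with. They were chosen by the deposited class (exonic) and by the absence of a list entry, and no read count entered the choice. They are called unlisted exonic circRNAs here, and the 1687 exonic circRNAs with a list entry are called listed exonic circRNAs. The absence from a list was taken as annotated and was not searched again.

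The 6 libraries came from granulosa cells of pig ovaries, with 3 libraries from atretic antral (AA) follicles and 3 from healthy antral (HA) follicles. The follicles of gilts were sorted by eye under a stereomicroscope, AA follicles by an opaque look and poor vascularisation and HA follicles by a vascularised wall and clear fluid, and each library pooled granulosa cells of several follicles. The labels call the cells mural, but in both follicle types the study mixed the cells scraped from the wall with the follicular fluid. In AA follicles that fluid held floating apoptotic granulosa cells, so that their presence and atresia cannot be told apart. An AA and an HA library of the same number carry the same date in the labels. Total RNA was depleted of ribosomal RNA before sequencing, and the unit of measurement is the junction read, a read that spans the joint of a circle.

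CircRNAs form by back-splicing, in which a downstream splice donor is joined to an upstream acceptor of the same transcript. The product has no free ends, resists exonucleases and usually accumulates at a low level relative to the linear mRNA of its host gene. An exonic circRNA is built from exons of its host and is mostly cytoplasmic. Granulosa cells surround the oocyte, make estradiol and inhibin, and undergo apoptosis during atresia, the degeneration by which most antral follicles are lost.

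The quantitative PCR primers that the study designed for circRNAs of UNKL, ANKHD1, KIF16B and GMPS are shown because each gene gave an unlisted exonic circRNA read mainly in AA or mainly in HA libraries, as described with the AA and HA values. Each primer is given 5′ to 3′ in lower case with no base marked, F for forward and R for reverse. The primers are named by gene, and the junction each pair spans was not determined here. The genes gave 3, 8, 5 and 5 unlisted exonic circRNAs, in the order UNKL, ANKHD1, KIF16B, GMPS, and 0, 2, 0 and 1 listed ones.
circ_UNKL F: cggttcccatacaggtccac
circ_UNKL R: ggtgcccgttttgtagtagc
circ_ANKHD1 F: gatgctggtgcagatcaaga
circ_ANKHD1 R: tgcttctagtcgtgcctgtg
circ_KIF16B F: catgaccgacctctccaagt
circ_KIF16B R: ctgccaacatacgtctgacc
circ_GMPS F: tgatggattcaaggttgtgg
circ_GMPS R: tccaaggggaagatttcaga

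The libraries differed in how their junction reads were spread. They held between 25838 and 34414 junction reads on circRNAs of any class, but between 1270 and 3465 different circRNAs, and AA 2, AA 3 and HA 1 stood apart with 1270, 1620 and 1416. The relative depth, derived from the mapped reads, was 1, 0.802 and 0.777 in AA 1 to AA 3 and 0.695, 0.985 and 0.922 in HA 1 to HA 3. Of 9 granulosa cell markers looked for, 7 were found by symbol. They summed to 2315 to 5431 FPKM in AA and 4969 to 10165 FPKM in HA libraries. FPKM are fragments scaled to transcript length and library size. SERPINE2, also among the 9 but in the gene table as PN-1, is not in these sums. It was at 2774 to 6380 FPKM in AA and 8166 to 11244 FPKM in HA libraries. FSHR, the receptor of follicle-stimulating hormone, ran the other way from the sums, at 88.3 to 92.0 FPKM in AA and 28.4 to 51.0 FPKM in HA libraries. The 4 theca markers summed to 22.1 to 36.5 FPKM in AA and 36.5 to 58.1 FPKM in HA libraries. The 8 leukocyte markers summed to 13.6 to 56.4 FPKM in AA libraries and 2.26 to 6.45 FPKM in HA libraries, with CD163 at 0 in all 6. The 7 measured markers of smooth muscle and fibroblasts of 8 summed to 52.5 to 143 FPKM in AA libraries and 21.2 to 37.5 FPKM in HA libraries. The 4 measured endothelial markers of 6 summed to 7.76 to 16.6 FPKM in AA libraries and 3.36 to 6.04 FPKM in HA libraries. The part of these markers in the comparisons of AA with HA was not tested.

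Unlisted exonic circRNAs were numerous but carried few reads each. They made up 66.9% of the exonic circRNAs and held 30111 junction reads, 16.4% of the reads of all circRNAs, while the listed exonic circRNAs held 40167 reads (21.9%). The median unlisted exonic circRNA had 6 reads over the 6 libraries (interquartile range 3 to 11), against 10 (4 to 22) for a listed one. Only 2 reads, the fewest in the table, stood behind 723 of them (21.2%), against 13.3% of listed circRNAs. At the other end, 29 unlisted and 147 listed exonic circRNAs had more than 50 reads. The reads were not concentrated in a few circRNAs, since the 10 most abundant held 4.69% and the 100 most abundant 17.3% of the reads on unlisted exonic circRNAs.

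The number detected changed with the library much more than the reads did. AA 1, AA 2 and AA 3 held 926, 260 and 477 unlisted exonic circRNAs, and HA 1, HA 2 and HA 3 held 411, 892 and 1158. The same libraries held 4584, 3665 and 6474 reads on them in AA and 5464, 5396 and 4528 reads in HA. AA 2, AA 3 and HA 1, which detected the fewest, had the most reads per detected circRNA, with means of 14.1, 13.6 and 13.3, against 4.95 in AA 1, 6.05 in HA 2 and 3.91 in HA 3. These 3 libraries also had few circRNAs at the minimum of 2 reads, 3.16% to 4.82% of those detected, against 17.6% to 42.1% in the other 3.

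In every library the unlisted circRNAs had fewer reads each than the listed ones. The mean number of reads per detected circRNA averaged 9.31 ± 4.81 for unlisted and 14.1 ± 5.81 for listed exonic circRNAs (SD, n = 6 libraries). The log2 ratio was -0.68, and unlisted was lower in 6 of 6 libraries (two-sided exact sign-flip permutation test over libraries, p = 0.03125, the smallest that 6 libraries can give). It was also 0.03125 after Benjamini-Hochberg adjustment over the 4 comparisons of unlisted with listed exonic circRNAs. The log2 ratio was -0.86 within AA 1, HA 2 and HA 3 alone, where the smallest p is 0.25.

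**Figure D1:**
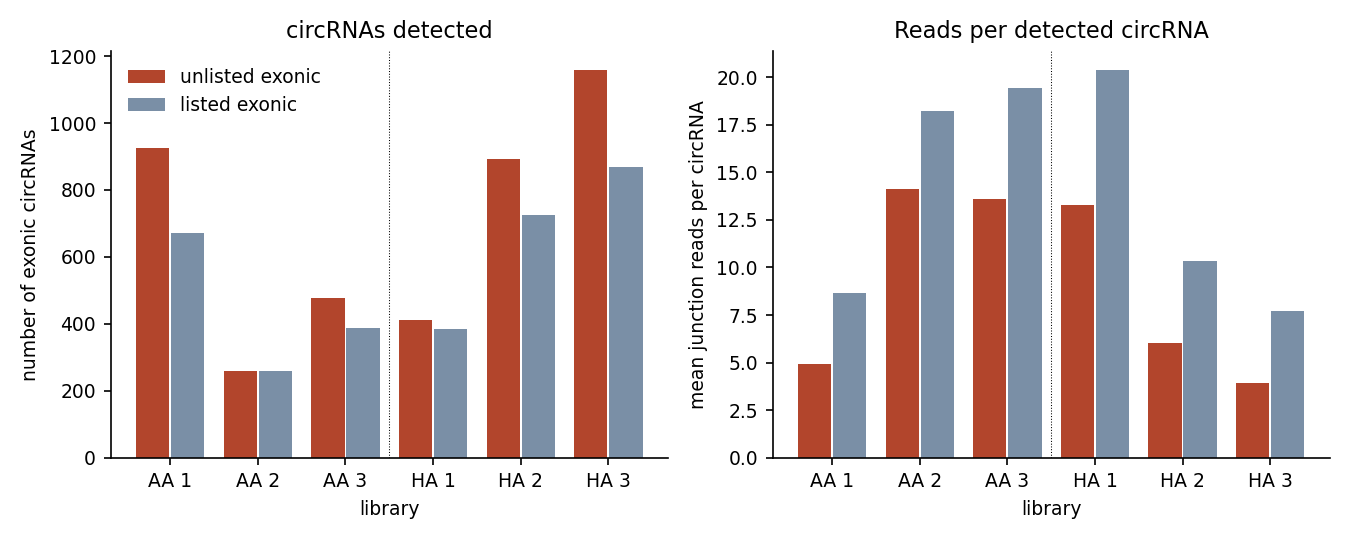
CircRNAs detected (left panel) and mean junction reads per detected circRNA (right panel) in each library, as bars from 0 for unlisted and listed exonic circRNAs, with AA libraries left of HA libraries. AA 2, AA 3 and HA 1 detected the fewest unlisted circRNAs (260, 477 and 411) and had the highest means (14.1, 13.6 and 13.3 reads), and the unlisted bar is below the listed bar for reads in every library.

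Most unlisted exonic circRNAs were seen in a single library. Detection here means at least 2 reads, where the deposited counts start, so a single read in a library may have gone unseen. That held for 2888 of the 3403 (84.9%), against 911 of the 1687 listed ones (54.0%). At least 2 libraries held 515 unlisted circRNAs (15.1%) and 776 listed ones (46.0%), and at least 5 libraries held 18 (0.529%) and 124 (7.35%). By follicle type, 1164 unlisted circRNAs (34.2%) were detected in AA libraries and no HA library, 1861 (54.7%) in HA libraries and no AA library, and 378 (11.1%) in both. Most of these one-sided detections were in a single library, 1129 in AA and 1759 in HA. Only 35 (1.03%) were in 2 or more AA libraries and no HA library, and 102 (3.00%) in 2 or more HA libraries and no AA library. The same shares were not computed for listed or for all circRNAs. Of circRNAs of any class, AA 1 to AA 3 held 3036, 1270 and 1620 and HA 1 to HA 3 held 1416, 2804 and 3465. HA 3, which detected the most, held 826 of the circRNAs seen in 1 library, and AA 2, which detected the fewest, held 165.

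Taken library by library, fewer of the unlisted than of the listed circRNAs were found again elsewhere. Of the unlisted exonic circRNAs detected in AA 1, AA 2 and AA 3, 29.7%, 36.5% and 34.4% were also in another library, and of those in HA 1, HA 2 and HA 3, 34.5%, 25.6% and 28.7%. For listed circRNAs every library was between 66.9% and 80.8%. The mean was 31.6 ± 4.23% for unlisted and 74.4 ± 5.82% for listed circRNAs (SD, n = 6), a difference of -42.8 percentage points, lower in 6 of 6 libraries (two-sided exact sign-flip permutation test over libraries, p = 0.03125, adjusted p = 0.03125). Listed circRNAs also had more reads each, and the part of read number in this difference was not tested apart from a limit of 5 reads, under which the direction was the same in each library.

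**Figure D2:**
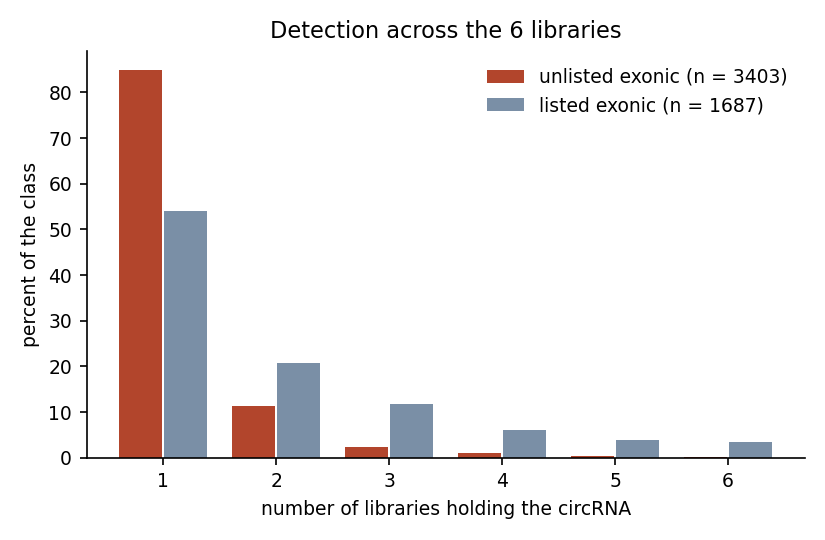
Percent of unlisted and of listed exonic circRNAs (y axis, from 0) by the number of libraries in which they were detected (x axis, 1 to 6). Detection in 1 library covered 84.9% of unlisted and 54.0% of listed circRNAs, and the listed bars are higher at every number of libraries from 2 upwards.

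Libraries shared few unlisted exonic circRNAs with each other. The pair with the most in common was AA 1 and HA 3, with 164 shared, which were 17.7% of those in AA 1 and 14.2% of those in HA 3. The pair with the fewest was AA 2 and HA 1, with 17 shared (6.54% and 4.14%). Both pairs combine the 2 follicle types.

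Some unlisted circRNAs were abundant in 1 library and had no deposited read elsewhere. Deposited counts start at 2, so an entry without reads may hide a single read. At least 20 reads in some library were reached by 237 unlisted exonic circRNAs, and 146 of these (61.6%) had no read in any other library, against 43 of 278 (15.5%) among listed ones. AA 2, AA 3 and HA 1 held 40, 68 and 36 of the 146, and the other 3 libraries 2 together. The most abundant came from ITPR2, an inositol trisphosphate receptor that releases calcium from the endoplasmic reticulum, with 46 reads in AA 2 (chr5:50645243-50699658 of Sscrofa10.2, the build of all positions given). NGDN and YME1L1 followed with 37 reads each, in AA 2 and AA 3.

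Only 4 unlisted exonic circRNAs were detected in all 6 libraries. The most abundant of all came from ZMYND11, a reader of histone methylation, and lay at chr10:76272294-76306111 on the minus strand, with a predicted length of 457 nt. It had 96, 21 and 63 reads in AA 1 to AA 3, and 31, 60 and 63 reads in HA 1 to HA 3, 334 in all. AA 1 was the highest and AA 2 the lowest, so that the AA libraries spanned the HA values.

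The circRNA of AP1AR, a regulator of the adaptor complex of clathrin-coated vesicles, had 16, 23 and 62 reads in AA and 19, 9 and 24 reads in HA libraries (chr8:118377701-118385149, minus strand, 199 nt). That of HNRNPLL, a regulator of alternative splicing, lay on an unplaced scaffold, with 8, 15 and 36 reads in AA and 37, 12 and 13 reads in HA libraries. The 4th came from MYO1E, a class I myosin, with 6, 6 and 11 reads in AA and 8, 2 and 3 reads in HA libraries (chr1:124861734-124884580, 1031 nt). The ranges of AA and HA overlapped for AP1AR, HNRNPLL and MYO1E.

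The other abundant unlisted circRNAs were each missing from 1 or more libraries. FAM208A, part of a complex that silences transcription, had 15, 0 and 24 reads in AA and 40, 40 and 29 reads in HA libraries (chr13:42377857-42392300, 1037 nt). SERPINE2, a serine protease inhibitor that granulosa cells secrete, had 0, 16 and 38 reads in AA and 41, 17 and 26 reads in HA libraries (chr15:139207889-139211780, 509 nt). RAD18, a ubiquitin ligase of DNA damage tolerance, had 17, 37 and 35 reads in AA and 21, 0 and 19 reads in HA libraries. FAM208A was thus higher in every HA library than in any AA library, while the ranges of SERPINE2 and RAD18 overlapped.

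TXN2, the mitochondrial thioredoxin, was the least evenly spread of the 10 most abundant. Its 108 reads came from 2 libraries only, AA 1 with 23 and HA 1 with 85. TMEM237, a protein of the ciliary transition zone, had 6, 21 and 0 reads in AA and 35, 14 and 25 reads in HA libraries. PPP4R1, a regulatory subunit of protein phosphatase 4, had 7, 0 and 25 reads in AA and 31, 22 and 6 reads in HA libraries (chr6:91918116-91919964, 461 nt).

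PDCD4, an inhibitor of translation initiation, and NOTCH2, a receptor that signals between touching cells, tied at 88 reads. PDCD4 had 37, 25 and 8 reads in AA and 0, 0 and 18 reads in HA libraries (chr14:132243465-132258271, 1309 nt). NOTCH2 had 9, 0 and 43 reads in AA and 25, 6 and 5 reads in HA libraries (chr4:110972981-110976614, 1208 nt). Both had AA and HA values that overlapped, and NOTCH2 was named beyond the 10 only because of the tie.

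**Figure D3:**
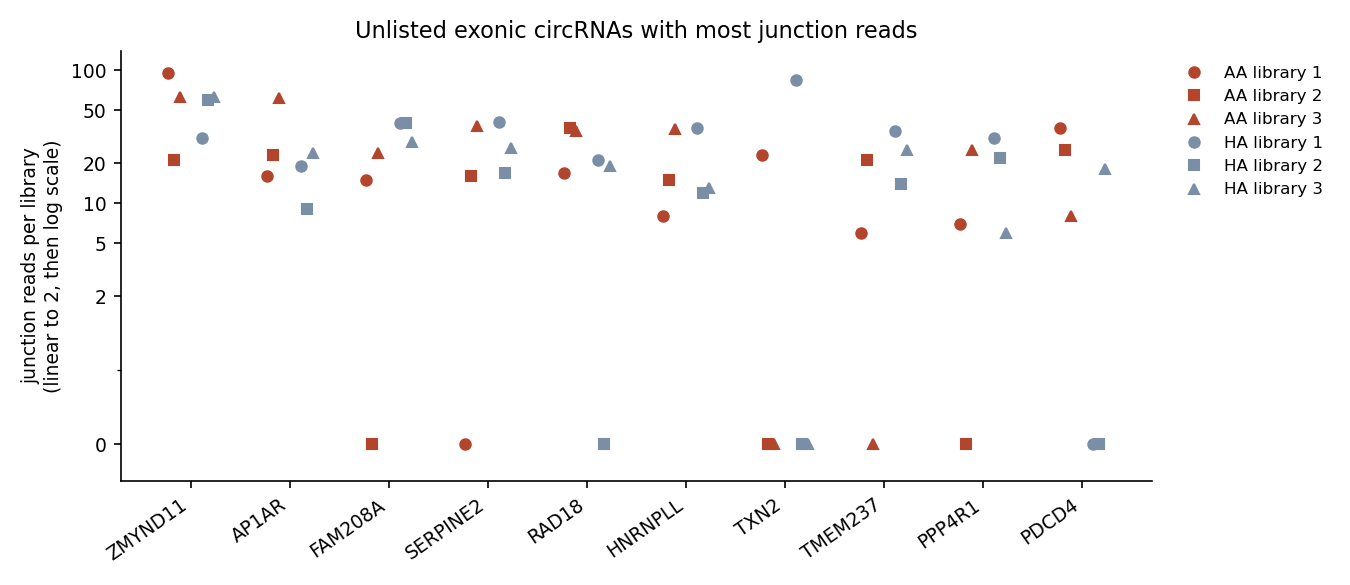
Junction reads in each library (y axis, linear near 0 and logarithmic above) of the 10 unlisted exonic circRNAs with the most reads, 1 point per library, AA and HA in different colours. ZMYND11, at 21 to 96 reads, is the highest, and TXN2 has points above 0 in AA 1 and HA 1 only.

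Unlisted exonic circRNAs were predicted to be slightly longer than listed ones. The predicted length, which sums annotated exons between the ends of a junction, had a median of 584 nt (interquartile range 367 to 945) against 516 nt (348.5 to 790.5) for listed ones. The library medians averaged 581 ± 16.7 nt for unlisted and 547 ± 18.0 nt for listed circRNAs (SD, n = 6), a log2 ratio of 0.09, with unlisted higher in 6 of 6 libraries (two-sided exact sign-flip permutation test over libraries, p = 0.03125, adjusted p = 0.03125). By the same exact test, the log2 ratio was 0.10 with a minimum of 5 reads (p = 0.0625) and 0.081 with 1 circRNA per host gene (p = 0.09375), so that the p no longer passed. The genomic span between the ends was a median of 8056 bases, against 7730 for listed circRNAs, and the predicted length was a median of 8.27% of it.

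The difference in length lay partly in the upper tail. Over 2000 nt were 151 unlisted (4.44%) and 39 listed circRNAs (2.31%), and under 200 nt 122 (3.59%) and 43 (2.55%). In 125 unlisted circRNAs (3.67%) the span equalled the length, so that no annotated intron lay between the ends, against 3.62% of the listed ones. CircRNAs in at least 3 libraries had a median of 600.0 nt and those in 1 library 586 nt.

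The longest came from genes of very large proteins. MACF1, which links microtubules to actin, gave circles of 9136 nt (chr6:88257154-88298355, 26 reads, all in AA 2) and 8694 nt (chr6:88257154-88290327, 3 reads in HA 2). VCAN, the proteoglycan versican of the follicular matrix, gave one of 8178 nt (chr2:93830099-93857047, 6 reads in HA 3). DMXL1 and SVEP1 followed with 7531 and 7372 nt and 2 reads each. The 5 longest were thus each seen in 1 library. A length of this size is predicted from the annotation, and the exons inside the circle were not read.

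The shortest had similarly few libraries. OSBPL9, a lipid-binding protein, gave 78 nt with 2 reads in HA 3, MYOF, a ferlin of membrane fusion, 89 nt with 20 reads in AA 3, and UBE2H, a ubiquitin-conjugating enzyme, 93 nt with 2 reads in AA 1. TNPO2, a nuclear import receptor, gave 100 nt with 10 reads in AA 3, equal to its span, and CCNYL1 110 nt with 4 reads in AA 1.

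Unlisted exonic circRNAs lay on all 19 placed chromosomes, with 1784 on the plus and 1619 on the minus strand. Chromosomes 1, 13 and 14 held the most, with 358, 273 and 255. On chromosome 7 74.0% of the exonic circRNAs were unlisted, and on chromosome 6 59.0%. A further 113 lay on 67 unplaced scaffolds, where all 113 exonic circRNAs were unlisted and no circRNA of any class was listed. On placed chromosomes alone the unlisted share was 66.1%. RAD18, HNRNPLL and TMEM237, among the 10 most abundant, were on scaffolds, and the 4 comparisons of unlisted with listed circRNAs kept their direction and p without them.

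Many unlisted circRNAs were variants of a locus that also gives a listed one. At least 1 end was shared with a listed exonic circRNA by 673 (19.8%), and 49 of these shared a start with one listed circRNA and an end with another. An end was shared with another unlisted exonic circRNA by 1250 (36.7%), some of which also shared one with a listed circRNA. No end was shared with any other exonic circRNA by 1792 (52.7%).

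Where an end was shared, the listed partner usually had more reads. The median was 6 reads for the unlisted circRNA and 13 for its most abundant listed partner. The unlisted one was lower in 455 pairs (67.6%), higher in 184 (27.3%) and equal in 34. ZMYND11 was among those higher, with 334 reads beside 9 for its listed partner, and PDCD4 among those lower, with 88 beside 757. Of the unlisted circRNAs that shared an end with a listed one, 21.4% were in at least 2 libraries, against 13.6% of those that shared none.

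The unlisted exonic circRNAs came from 1833 host genes. One circRNA came from each of 1134 of them (61.9%), while 106 gave at least 5 and 14 at least 10. No listed exonic circRNA came from 1220 of the host genes (66.6%), and 613 gave both kinds. In these 613, the most abundant listed circRNA had more reads than the most abundant unlisted one in 368 (60.0%), fewer in 212 (34.6%) and the same number in 33. The median unlisted length was longer in 359 of them and shorter in 253.

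HEATR5A, which encodes a HEAT-repeat protein of vesicle traffic, gave the most, 36 unlisted beside 3 listed exonic circRNAs. They held 18, 49 and 67 reads in AA and 32, 82 and 48 reads in HA libraries, and 29 of the 36 were in 1 library. Within these 36 HEATR5A circRNAs alone, the largest had 31 of the 296 reads (10.5%). HEATR5A mRNA was at 41.0, 34.2 and 62.4 FPKM in AA and 81.1, 84.3 and 59.2 FPKM in HA libraries (log2 change -0.72, SE 0.25, limma adjusted p = 0.223).

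DOCK5, an exchange factor for Rac, gave 18 unlisted and no listed exonic circRNA, with 40, 35 and 100 reads in AA and 89, 36 and 11 reads in HA libraries. AA 3 and HA 1 were the high ones, and the groups overlapped. DOCK5 mRNA was at 83.8, 86.1 and 73.6 FPKM in AA and 66.8, 62.9 and 52.8 FPKM in HA libraries (log2 change 0.41, SE 0.16, limma adjusted p = 0.277). The mRNA groups thus did not overlap, while the circRNA reads did.

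Other host genes with many unlisted circRNAs were again large. SYNE2, a nesprin that ties the nucleus to actin, gave 14 with 106 reads. ANAPC1, a subunit of the anaphase-promoting complex, JMJD1C, of the histone demethylase family, and CHD2, a chromatin remodeller, gave 13 each, with 126, 125 and 92 reads. For CHD2 the 10 listed circRNAs had more reads, 148, than the 13 unlisted ones.

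MACF1 and ATM, the kinase that responds to DNA double-strand breaks, gave 11 each, with 102 and 86 reads. RBL1, a relative of the retinoblastoma protein, gave 10 with 170 reads, of which 1 circRNA held 68 (40%). PTPN13, GREB1L, DST and PLD1 also gave 10, and GREB1L, DST and PLD1 had no listed exonic circRNA.

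Host genes were well expressed in these cells. The host of 3240 of the unlisted circRNAs (95.2%) was found in the gene table, which gave 1739 genes, and 113 of the 163 without a match lay on scaffolds. The median host FPKM was 23.8 (interquartile range 13.1 to 44.9) against 2.58 for all genes of the table and 13.1 for genes of at least 1 FPKM, and 98.3% of the hosts reached 1 FPKM. Listed exonic circRNAs had hosts at a median of 25.1 FPKM. Per library the median host FPKM averaged 27.9 ± 2.52 for unlisted and 26.7 ± 1.94 for listed circRNAs (SD, n = 6), a log2 ratio of 0.06, higher in 6 of 6 libraries (two-sided exact sign-flip permutation test over libraries, p = 0.03125, adjusted p = 0.03125). The pooled medians run the other way.

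Expression was not the only property that went with hosting. The share of genes that hosted an unlisted exonic circRNA was 0.690% below 1 FPKM, 13.5% from 5 to 20 FPKM, 25.8% from 20 to 50 and 26.5% from 50 to 100. At 500 FPKM and above it was 12.8%, 15 of 117 genes. By the genomic span of the gene it was 0.884% under 10 kb, 7.80% from 10 to 25 kb, 22.1% from 25 to 50 kb and 32.6% from 50 to 100 kb. The median host spanned 60.6 kb, against 22.7 kb for genes of at least 1 FPKM and 73.7 kb for hosts of listed circRNAs.

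**Figure D4:**
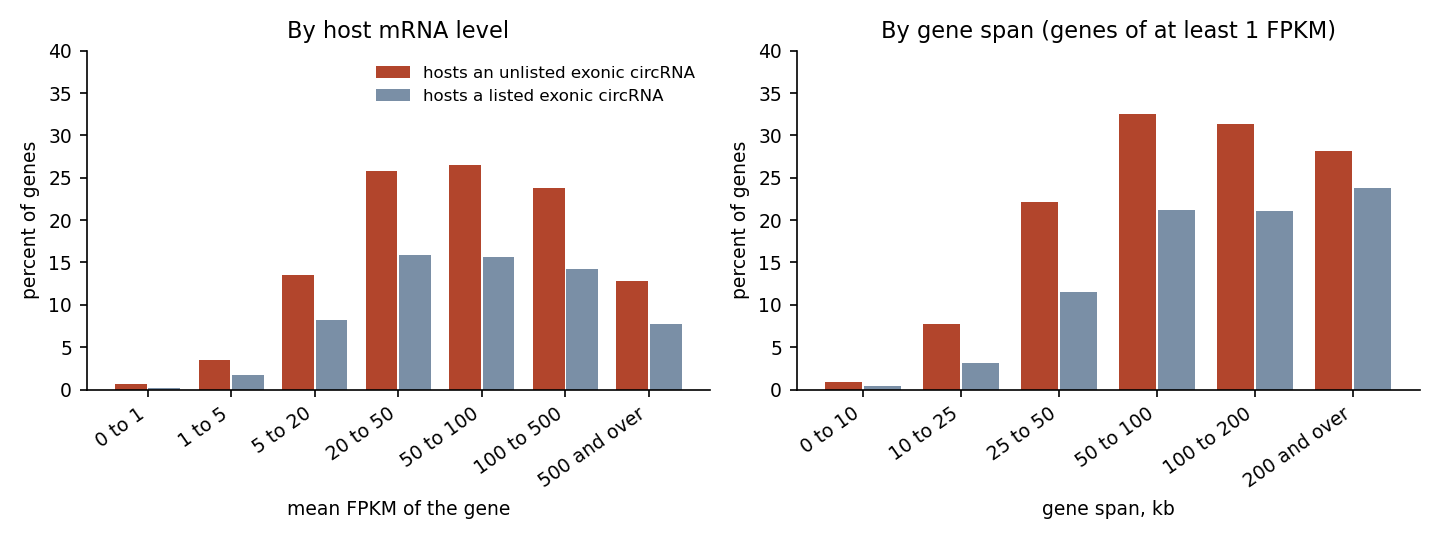
Percent of genes (y axis, from 0) that host at least 1 unlisted or listed exonic circRNA, by mean FPKM (left panel) and by genomic span in kb (right panel). For unlisted circRNAs the share is 0.690% under 1 FPKM, 26.5% at 50 to 100 FPKM and 12.8% at 500 FPKM and above.

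Among the gene groups examined, chromatin, cytoskeleton and ubiquitin genes hosted unlisted circRNAs most often. Of the genes of at least 1 FPKM in a group, a circRNA came from 28 of 42 chromatin regulators (66.7%), 23 of 35 cytoskeleton and motor genes (65.7%) and 22 of 35 ubiquitin system genes (62.9%), beside 15.3% of all 11151 genes at that level. Listed exonic circRNAs also came from these groups, from 23 chromatin, 13 cytoskeleton and 19 ubiquitin genes. The median genes of these groups spanned 90.1, 110 and 97.5 kb, above the 22.7 kb of all such genes, and the part of gene span in these counts was not tested. All gene groups were chosen with earlier results of these data known, so their shares are not an independent sample of genes. The chromatin genes with most reads were CHD2 (92), EP300, a histone acetyltransferase (71), KMT2E (66) and SMARCA5, a nucleosome remodeller (46). The cytoskeleton genes were DOCK5 (311), KIF16B, a kinesin of endosomes (107), MACF1 (102) and DST (94). The ubiquitin genes included UBR2 (46), TTC3 (40) and HUWE1 (32), all ubiquitin ligases.

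Groups tied to follicle function had shares nearer the 15.3% of all genes of at least 1 FPKM, and the difference from the other groups was not tested. Unlisted circRNAs came from 9 of 22 apoptosis and p53 genes (40.9%), 7 of 17 genes of PI3K signalling (41.2%), 8 of 23 of the extracellular matrix and its receptors (34.8%) and 5 of 18 of TGF-beta signalling (27.8%). In the apoptosis group ATM had 86 reads, BIRC6, a large inhibitor of apoptosis, 59, ATR 35 and BIRC2 24. In the matrix group ITGAV, an integrin subunit, had 99 reads, LAMC1, a laminin chain, 32, ITGB1 23 and VCAN 20. In the PI3K group PIK3C2A had 32 reads, KIT, the receptor of granulosa-derived KIT ligand, 17, and MTOR and PIK3CB 10 each.

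Among TGF-beta genes, ACVR1, a type I receptor of bone morphogenetic proteins, led with 69 reads, followed by SMAD2 (22), BMPR2 (18) and TGFBR3 (11). ACVR1 had 23, 0 and 30 reads in AA and 0, 14 and 2 reads in HA libraries, so that 1 AA and 1 HA library had none. Its mRNA was at 22.8, 31.5 and 27.2 FPKM in AA and 18.1, 21.7 and 20.2 FPKM in HA libraries, without overlap (log2 change 0.42, SE 0.19, limma adjusted p = 0.336).

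Among genes of gonadotropin response and steroid synthesis, 4 of 18 were hosts (22.2%, beside 15.3% of all genes at that level), with 4 circRNAs and 23 reads in all, and none of the 18 hosted a listed exonic circRNA. ESR1, an estrogen receptor, had 17 of the 23 reads, 7 in AA 2 and 10 in HA 2, at an mRNA level of 548, 532 and 465 FPKM in AA and 531, 346 and 540 FPKM in HA libraries. GATA6, a transcription factor, and SCARB1, a receptor for high-density lipoprotein, had 2 reads each. In the group of genes examined for a part in splicing or circRNA formation, 4 of 21 of at least 1 FPKM were hosts (19.0%). These were SRSF11 with 15 reads, MBNL1 with 14, SF3B1 with 13 and TNPO3 with 5, and NUDT21, which had no FPKM here, gave 10 reads.

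The comparison of AA with HA follicles, the question of the series, showed no difference past the test in the class as a whole. Unlisted exonic circRNAs held 15.9%, 14.2% and 18.8% of the junction reads in AA 1 to AA 3 and 17.1%, 16.5% and 15.3% in HA 1 to HA 3. The Wilson 95% intervals reached from 13.8% to 14.6% in AA 2 and from 18.4% to 19.2% in AA 3, and cover counting error only. The mean was 16.3 ± 2.34% in AA and 16.3 ± 0.914% in HA (SD, n = 3 each), a difference of -0.03 percentage points (exact permutation test, two-sided, p = 1). The AA values spanned the HA values, and the difference lay between -1.28 and 1.04 points when single libraries were left out, above 0 without AA 1, AA 2, HA 1 or HA 2.

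Per relative depth, the reads on unlisted exonic circRNAs averaged 5829.5 ± 2171 in AA and 6083 ± 1562 in HA libraries (SD, n = 3 each, log2 difference -0.09, exact permutation test, two-sided, p = 0.6). The number detected averaged 554 ± 339.7 in AA and 820.3 ± 379 in HA libraries (log2 difference -0.63, exact permutation test, p = 0.5). Unlisted circRNAs made up 58.0%, 50% and 55.1% of the exonic circRNAs detected in AA libraries and 51.6%, 55.2% and 57.2% in HA libraries (difference -0.28 percentage points, exact permutation test, p = 0.9). With 3 libraries a side, p cannot go below 0.1. In bulk pools, fewer cells of a type and less RNA per cell cannot be told apart.

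No single unlisted exonic circRNA was called different in the tests run here. Of the 1014 circRNAs detected in at least 3 libraries, which were tested together, 131 were unlisted exonic, 3.85% of the class. With edgeR and Benjamini-Hochberg adjustment, 0 of the 131 passed an adjusted p of 0.05 at a fold change of 2 (smallest adjusted p = 0.812), beside 0.0986% lower in AA and 0% higher in AA of all 1014, and DESeq2 also called 0. Their log2 changes had a median of 0.07, against -0.15 over all circRNAs tested, with 69 above 0 and 62 below. At an unadjusted p of 0.05 and the same fold, edgeR gave 3 lower and 2 higher in AA (2.29% and 1.53%), beside 5.13% and 0.592% of all. DESeq2 gave 3 lower and 4 higher (2.29% and 3.05%), beside 4.44% and 0.986% of all. With the replicate number as a block, edgeR gave 1 lower and 0 higher (0.763% and 0%), beside 1.08% and 0.394% of all.

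The groups did not overlap for few of them. Every AA library was above every HA library in reads per relative depth for 4 of the 131, beside 2.86% of all tested, and every AA library was below for 8, beside 8.88%. A circRNA with no reads in any library of a group entered the test only through all 3 libraries of the other, so that such members had to differ. Of the 131, 3 had reads in all HA and no AA libraries and 2 in all AA and no HA libraries. These are the circRNAs described next.

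The 3 circRNAs lower in AA at the unadjusted p had no reads there. FAM49B, which binds active Rac1 and restrains actin dynamics, had 0, 0 and 0 reads in AA and 28, 18 and 9 reads in HA libraries (chr4:10825873-10836946, plus strand, 311 nt). Against a floor of 3 reads over the AA group, that is 18.2-fold lower in AA at relative depth (edgeR unadjusted p = 0.00867, adjusted p = 0.812). This bound and those given for the circRNAs below leave out the spread between libraries. FAM49B mRNA did not follow, at 62.3 ± 14.9 FPKM in AA and 61.9 ± 9.51 FPKM in HA (SD, n = 3 each, limma adjusted p = 0.994).

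ANKHD1, a protein with ankyrin repeats and a KH domain, had 0, 0 and 0 reads in AA and 14, 10 and 8 reads in HA libraries (chr2:148134331-148145898, 936 nt). Against the same floor AA was 10.6-fold lower (edgeR unadjusted p = 0.0338, adjusted p = 0.812). Its other unlisted circRNAs were each seen in 1 library, the largest with 10 reads in AA 1 and another with 10 in HA 2. ANKHD1 mRNA was at 40.6 ± 1.91 FPKM in AA and 44.8 ± 1.32 FPKM in HA (SD, n = 3 each, limma adjusted p = 0.681).

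GCLC, the catalytic subunit of glutamate-cysteine ligase and rate-limiting for glutathione, had 0, 0 and 0 reads in AA and 17, 8 and 3 reads in HA libraries (chr7:31727041-31733637, 603 nt). Against the same floor AA was 9.25-fold lower (edgeR unadjusted p = 0.0376, adjusted p = 0.812). Its other 2 unlisted circRNAs start at the same position and were seen in HA 2 only, with 14 and 6 reads. GCLC mRNA was at 523 ± 147 FPKM in AA and 1066 ± 206 FPKM in HA (SD, n = 3 each), a log2 change of -1.05 (SE 0.27, limma adjusted p = 0.129) in the same direction as the circRNA.

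Both circRNAs higher in AA had no reads in HA. UNKL, a zinc finger protein related to unkempt, had 7, 28 and 6 reads in AA and 0, 0 and 0 reads in HA libraries (chr3:42052106-42066875, minus strand, 565 nt). Against a floor of 3 reads over the HA group, AA was 13.8-fold higher (edgeR unadjusted p = 0.0222, adjusted p = 0.812). AA 2 held most of the reads. UNKL mRNA was low, at 3.64 ± 0.885 FPKM in AA and 3.41 ± 0.280 FPKM in HA (SD, n = 3 each, limma adjusted p = 0.943).

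INVS, the ciliary protein inversin, had 2, 14 and 10 reads in AA and 0, 0 and 0 reads in HA libraries (chr1:270329795-270354137, 1169 nt). Against the same floor over the HA group, AA was 8.74-fold higher (edgeR unadjusted p = 0.0409, adjusted p = 0.812). It shared an end with a listed circRNA of 22 reads. INVS mRNA was at 15.8 ± 2.72 FPKM in AA and 18.3 ± 1.81 FPKM in HA (SD, n = 3 each, limma adjusted p = 0.660). The AA reads ran the other way from the mRNA means.

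**Figure D5:**
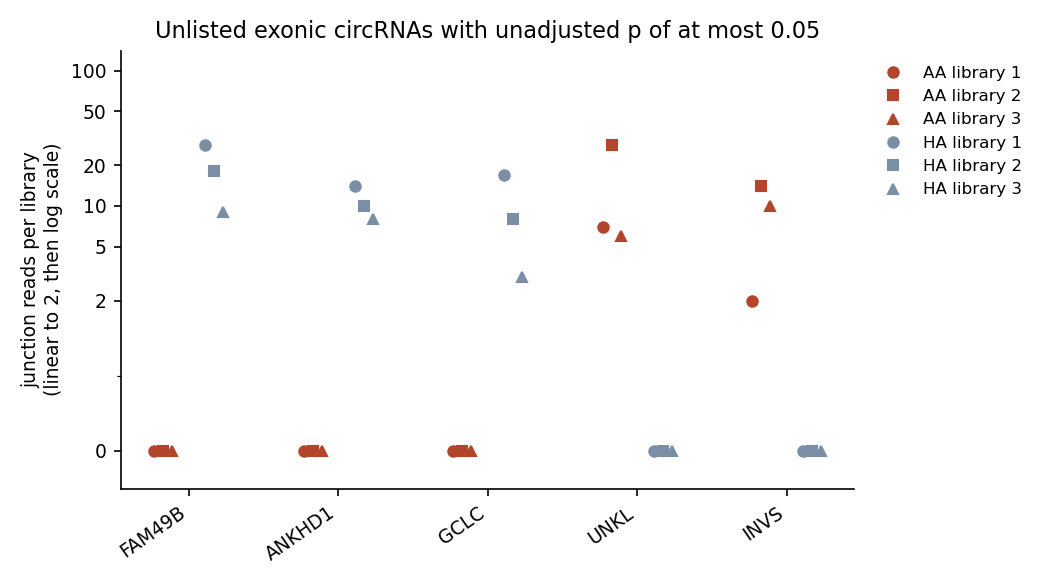
Junction reads in each library (y axis, from 0) of the 5 unlisted exonic circRNAs whose edgeR p reached 0.05 before adjustment at a fold change of 2 or more, AA libraries left of HA libraries. FAM49B, ANKHD1 and GCLC have points above 0 in HA libraries only (3 to 28 reads), UNKL and INVS in AA libraries only (2 to 28 reads), and none has an adjusted p below 0.812.

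The primers for KIF16B and GMPS belong to genes whose unlisted circRNAs came near the same pattern, and both circRNAs were chosen after their values were seen. KIF16B had 22, 14 and 16 reads in AA and 0, 0 and 2 reads in HA libraries (chr17:28241701-28268431, minus strand, 482 nt, edgeR unadjusted p = 0.0740, adjusted p = 0.998). GMPS, an enzyme of guanine nucleotide synthesis, had 4, 10 and 10 reads in AA and 0, 2 and 0 reads in HA libraries (chr13:103784117-103799017, 499 nt, edgeR unadjusted p = 0.202). All AA libraries were above all HA libraries for both, and neither passed here after adjustment. For KIF16B, DESeq2 gave an unadjusted p of 0.0113 and an adjusted p of 0.748. By its own test, the study listed circRNAs of FAM49B, ANKHD1, GCLC, UNKL, KIF16B and GMPS, with the lengths given here, as differentially expressed. Its quantitative PCR found lower levels in AA for FAM49B and ANKHD1, and higher ones for UNKL, KIF16B and GMPS. The difference between the study's calls and the tests run here was not examined. Another GMPS circRNA with 16 reads was in HA 1 only and one with 18 reads in AA 3 only.

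Host mRNA was tested across all genes of at least 1 FPKM in 3 libraries. Of the 11001 genes, 1710 were hosts of unlisted exonic circRNAs, and limma called 0 of the hosts in either direction (smallest adjusted p = 0.0568), beside 0% of all genes. Without AA 3, limma called 5 hosts lower and 4 higher in AA (0.293% and 0.234%), beside 0.204% and 0.695% of all genes then tested. At an unadjusted p of 0.05, 99 hosts were higher in AA (5.79%, beside 9.48% of all genes) and 130 lower (7.60%, beside 6.14%). The median log2 change was -0.07 for hosts and 0.01 for all genes tested, with 714 hosts above 0 and 996 below.

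The hosts with the most mRNA gave few circRNA reads for their level. SERPINE2, in the gene table as PN-1, was at 4660, 2774 and 6380 FPKM in AA and 10637, 8166 and 11244 FPKM in HA libraries, without overlap (log2 change -1.19, SE 0.41, limma adjusted p = 0.218), and gave 169 reads from 4 unlisted circRNAs. RARRES1, VIM and RPL3 gave 2, 16 and 2 reads. CTSL, a lysosomal protease, was at 787, 393 and 471 FPKM in AA and 1378, 1366 and 1220 FPKM in HA libraries (log2 change -1.33, SE 0.28, limma adjusted p = 0.0816) and gave 7 reads. CTSB, another lysosomal protease, was at 703, 1060 and 596 FPKM in AA and 410, 349 and 321 FPKM in HA libraries (log2 change 1.09, SE 0.25, limma adjusted p = 0.0983) and gave 2 reads. GRB14 and PLS3, the other hosts among the 10 with the most mRNA beside GCLC and VCAN, gave 40 and 22 reads.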

How the data were processed

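Granulosa cell RNA of 3 AA and 3 HA pools was sequenced after ribosomal RNA depletion. The authors trimmed reads with cutadapt, aligned them with bowtie2 to Sscrofa10.2 (susScr3, also named in the submitters' processing notes) and called circRNAs with find_circ. The deposited junction counts are whole numbers from 2 upwards, with no normalization. Whether an entry without reads can stand for a single read was not determined. The deposited log2 values are these counts scaled by the authors to mapped reads, and only their scaling constants were used, as relative depth. The predicted length in the deposited table is a score of the authors' annotation, not a measurement. The gene table holds FPKM as deposited by the authors. Columns of the authors' own comparisons (fold changes and p-values) were not used.

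CircRNAs that reached 2 reads in 3 or more libraries were tested with edgeR 4.0.16 (R 4.3.3, quasi-likelihood, library sizes from the relative depth), with DESeq2 1.42.0 as an alternative. Host mRNA, as log2(FPKM + 1) of genes that reached 1 FPKM in 3 or more libraries, was compared by limma 3.58.1 with a mean-variance trend, so fold changes are on that scale and understate changes of low genes. Both were fitted on the whole table with Benjamini-Hochberg adjustment and tested on simulated data. Class values were compared with exact permutation and exact sign-flip tests over libraries, by enumeration of every arrangement. The Wilson intervals came from SciPy 1.17.1. Replicates are pools, so p-values of AA against HA measure the spread between pools. In the comparisons of unlisted with listed circRNAs, a circRNA found in several libraries enters each of them. Those library values are thus not fully independent.

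The labels tie AA and HA libraries of 1 number to the same date. For circRNAs, the correlations of their deviations from the group means were -0.01, 0.00 and -0.06, and those of genes -0.29, 0.00 and -0.40. Named were the 10 circRNAs with most reads, those called and up to 10 in each direction with the smallest unadjusted p among those at or under 0.05 with a fold change of 2, the 10 hosts with most circRNAs, the 5 longest and 5 shortest, those in all 6 libraries, up to 4 hosts per gene list, the 10 hosts of highest FPKM and hosts called by limma. KIF16B meets it as a list gene only. ITPR2, NGDN, YME1L1, GMPS and the KIF16B circRNA itself were named after their values were seen. Some genes that meet the rule are not reported here. The circRNAs and gene lists were chosen with earlier results of these data known. No genome of this build was used here, so circRNA sequences are not given.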

Additional observations from a re-analysis of the deposited data

How the results depend on the processing

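The 4 comparisons of unlisted with listed exonic circRNAs kept their direction under every alternative run. Over leaving out each library in turn the log2 ratio of length was 0.075 to 0.10, of reads per circRNA -0.74 to -0.62 and of host FPKM 0.054 to 0.068, and the difference in detection elsewhere was -43.8 to -42.2 points, at an exact p = 0.0625, the smallest 5 libraries can give. For length, the exact test gave 0.10 with a minimum of 5 reads (p = 0.0625), with 1 circRNA per host 0.081 (p = 0.09375) and with means in place of medians 0.13 (p = 0.0625). Without AA 2, AA 3 and HA 1, an alternative chosen after seeing the data, as was leaving out scaffolds, length gave 0.13, reads -0.86, detection -41.5 points and host FPKM 0.038 (exact p = 0.25, the smallest).

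Of the 4 AA against HA class values, the number detected stayed below 0 and the other 3 changed sign under some alternative. With a minimum of 5 reads the share of reads differed by 1.64 points, reads per depth by 0.18 (log2) and the unlisted share of detected by 3.96 points, the last by 1.82 points without AA 2, AA 3 and HA 1. The log2 difference in the number detected was -0.15 with a minimum of 5 reads and -0.13 without these 3 libraries. Leaving out libraries gave -1.28 to 1.04 points for the share of reads (above 0 without AA 1, AA 2, HA 1 or HA 2), -0.38 to 0.11 for reads per depth (above 0 without AA 1, AA 2 or HA 1), -1.09 to -0.18 for the number detected and -2.08 to 1.91 points for the unlisted share (above 0 without AA 2 or HA 3). The cause was not tested.

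Leaving out libraries gave 0 called unlisted circRNAs throughout. Called host genes were 0 to 5 lower and 0 to 4 higher, the 5 and 4 only without AA 3. Unadjusted calls of unlisted circRNAs were 0 to 3 lower and 0 to 2 higher, beside 0.229% to 5.63% lower and 0.432% to 1.21% higher of all circRNAs tested. Under detection in at least 5 libraries there were none (all circRNAs 1.72% and 0.575%), and likewise without AA 2, AA 3 and HA 1 (2.84% and 1.07%). With no filter on detection there were 2 lower and 4 higher (0.0588% and 0.118%, beside 0.331% and 0.139% of all).

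With the replicate number as a block in an exact permutation test, the class values were -0.03 points for the share of reads (p = 1), -0.09 for reads per depth (p = 0.75), -0.63 for the number detected (p = 0.5) and -0.28 points for the unlisted share (p = 1), where 0.25 is the smallest p. The block left 0 unlisted circRNAs and 0 host genes called. Over all features it gave 13 genes called higher in AA, against 0 without it, and 0 circRNAs called lower, against 1. The median unlisted exonic circRNA had 6 reads, and a floor of 3 reads was used for a group with no reads. The common dispersion of all circRNAs tested with edgeR was 2.03. The part of depth and of the spread between libraries in the absence of calls was not tested.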

Other observations

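Several host genes of unlisted exonic circRNAs came close to a call at the mRNA level and were named after their values were seen. SEMA5A, a semaphorin, was at 53.8, 84.3 and 32.5 FPKM in AA and 12, 8.01 and 12 FPKM in HA libraries (log2 change 2.23, limma adjusted p = 0.0568). RNF150, a membrane-bound RING finger protein, was at 22, 15 and 17 FPKM in AA and 45.6, 74.1 and 72.8 FPKM in HA libraries (log2 change -1.76, limma adjusted p = 0.0568). GREB1L, one of the hosts with 10 unlisted exonic circRNAs and no listed one, was at 79.9, 55.4 and 91.0 FPKM in AA and 135, 155 and 137 FPKM in HA libraries (log2 change -0.94, limma adjusted p = 0.0922). AA and HA libraries did not overlap for SEMA5A, RNF150 and GREB1L, while GREB1L circRNA reads did, at 13, 0 and 20 in AA and 34, 20 and 8 in HA libraries.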
